A study of Mus musculus with 34 samples.

Results

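DNA methylation of CpG islands was compared between adult mouse organs that arise from endoderm and adult mouse organs that arise from mesoderm. The endoderm-derived organs were colon, liver, lung and pancreas with 8 arrays, and the mesoderm-derived organs were kidney, muscle and spleen with 6 arrays, so that 14 of the 34 arrays of the series were used. Organs were assigned to a layer by the tissue named in the labels, and each tissue had 2 arrays. The series set ES cells and their differentiated progeny against normal embryos and tissues, and the germ layer of the tissues was not its own question. All DNA was from mice of the C57Bl/6 strain, and the labels give an age of 3 months for every animal. Both colon and both pancreas arrays were labelled male and both lung arrays female, while liver, kidney, muscle and spleen each had 1 female and 1 male array. No treatment or transgene was applied, and the arrays of different sex must come from different animals. For colon, lung and pancreas the sources used here do not say whether both arrays came from different animals, so the spread between them may be technical.

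Methylated DNA immunoprecipitation (mDIP) recovers sheared, denatured DNA with an antibody against methylated cytosine, and the bound DNA is set against the input DNA on an array of CpG islands. CpG islands are stretches rich in the dinucleotide CG that overlap many promoters, and most of them stay unmethylated in normal tissue whereas a minority become methylated as cells take on a lineage. The gut tube and the organs that bud from it are lined by epithelium of endodermal origin, whereas skeletal muscle, the kidney tubules and the blood cells that fill the spleen come from mesoderm. Every one of these organs also holds cells of the other layer, such as smooth muscle, vessels and blood in the gut and lung.

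Methylation of an island was expressed as its island methylation score (IMS). The log ratio of bound over input DNA was standardised to a Z-score over the probes of each array and averaged over those in the island. An IMS of 0 is thus the array's average probe, and an IMS above 0.75 was taken as methylated. Scores were obtained for 13340 autosomal islands, of which 11615 carry a gene name in the files, with a median of 5 probes over 655 bases.

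The promoters of 5 genes are printed to show what is being measured, chosen from those whose islands the array design places at the promoter and that have a RefSeq promoter window. The windows run from 250 bases before to 50 bases after the start of the gene on build GRCm38.p6. Each CG, which reads the same on both strands, is in capitals. The probe positions in the files use another build that is not named there, so the windows were not placed on the probes. Kat2a has the largest positive and 5730596B20Rik, a gene between Hoxa3 and Hoxa4 in RefSeq order, the most negative promoter difference between the layers, followed by Insl3. Gata2 is a named gene of the blood lineage, and Hoxa11 sets arrays of one tissue apart.
Kat2a, chr11:100712418-100712717, minus strand, 19 CG: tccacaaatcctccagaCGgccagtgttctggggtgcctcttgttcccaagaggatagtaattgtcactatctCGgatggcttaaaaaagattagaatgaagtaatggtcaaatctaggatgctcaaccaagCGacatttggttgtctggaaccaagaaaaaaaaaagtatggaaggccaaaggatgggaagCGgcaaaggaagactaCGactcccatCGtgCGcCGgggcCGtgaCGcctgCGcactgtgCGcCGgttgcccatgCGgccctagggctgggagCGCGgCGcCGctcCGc
Insl3, chr8:71689002-71689301, plus strand, 16 CG: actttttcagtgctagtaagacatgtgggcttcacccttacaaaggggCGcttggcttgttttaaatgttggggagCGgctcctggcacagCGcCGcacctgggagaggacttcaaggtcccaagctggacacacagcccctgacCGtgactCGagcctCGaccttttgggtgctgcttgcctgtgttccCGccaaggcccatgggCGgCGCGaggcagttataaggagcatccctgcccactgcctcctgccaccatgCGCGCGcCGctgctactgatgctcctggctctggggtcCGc
5730596B20Rik, chr6:52176905-52177204, plus strand, 7 CG: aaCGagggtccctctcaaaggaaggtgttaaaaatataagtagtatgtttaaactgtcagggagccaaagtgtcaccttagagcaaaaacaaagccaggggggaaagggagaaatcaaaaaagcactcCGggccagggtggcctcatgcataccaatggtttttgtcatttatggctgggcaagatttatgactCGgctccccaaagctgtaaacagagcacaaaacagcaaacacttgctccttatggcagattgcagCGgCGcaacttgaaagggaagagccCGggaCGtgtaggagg
Gata2, chr6:88193641-88193940, plus strand, 32 CG: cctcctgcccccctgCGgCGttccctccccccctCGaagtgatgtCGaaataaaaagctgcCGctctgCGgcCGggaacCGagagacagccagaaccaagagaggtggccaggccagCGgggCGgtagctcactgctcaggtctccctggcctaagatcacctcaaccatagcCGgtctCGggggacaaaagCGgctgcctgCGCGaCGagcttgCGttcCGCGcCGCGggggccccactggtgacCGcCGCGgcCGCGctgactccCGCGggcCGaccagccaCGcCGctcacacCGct
Gata2, chr6:88198414-88198713, plus strand, 29 CG: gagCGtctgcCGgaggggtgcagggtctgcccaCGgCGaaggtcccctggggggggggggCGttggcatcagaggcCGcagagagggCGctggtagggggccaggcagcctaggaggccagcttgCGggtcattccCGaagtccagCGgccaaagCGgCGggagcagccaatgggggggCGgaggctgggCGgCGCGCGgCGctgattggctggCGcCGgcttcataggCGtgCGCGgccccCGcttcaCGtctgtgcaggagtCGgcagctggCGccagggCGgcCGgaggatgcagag
Hoxa11, chr6:52245761-52246060, minus strand, 15 CG: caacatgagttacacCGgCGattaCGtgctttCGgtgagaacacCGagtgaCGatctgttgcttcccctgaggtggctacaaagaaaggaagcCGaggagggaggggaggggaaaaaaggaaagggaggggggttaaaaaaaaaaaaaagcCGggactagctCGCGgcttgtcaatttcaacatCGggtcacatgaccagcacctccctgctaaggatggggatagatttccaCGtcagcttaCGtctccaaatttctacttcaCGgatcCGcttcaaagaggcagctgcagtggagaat
Over all 32851 windows of the table the median was 7 CG and 94.6% held at least 1. The Gata2 windows held more CG than 90.5% and 87.1% of them, Kat2a more than 71.9%, Insl3 more than 67.0%, Hoxa11 more than 65.4% and 5730596B20Rik more than 47.9%.

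Several arrays went against their tissue labels, and array names below are those of the labels. Likeness was described by Spearman's rho between the deviations of 2 arrays from the island means, over the 500 islands that varied most among the 16 adult arrays, brain included. These values describe arrays that share islands, slides and scan days, and no test was made of them. Both colon arrays were alike with a rho of 0.917 and both pancreas arrays with 0.689. For the other tissues the rho between both arrays was -0.289 in liver, -0.170 in lung, -0.423 in kidney, -0.203 in muscle and -0.363 in spleen. The array most like kidney 1 was spleen 2 (rho 0.747), that most like kidney 2 was spleen 1 (0.466), and that most like lung 1 was muscle 2 (0.539). Liver 1 was most like brain 2 (0.653) and liver 2 most like brain 1 (0.518). Muscle 1 was most like kidney 1 (0.489) and lung 2 most like spleen 2 (0.349). Over different tissues the median rho was -0.0163 for the 36 pairs of one layer and -0.128 for the 48 pairs of different layers, against -0.203 for the 7 pairs of one tissue. Over all 13340 islands most of these partners differed. Kidney 1 was then most like muscle 1 (0.395), kidney 2 like muscle 2 (0.309) and lung 1 like spleen 1 (0.495). Liver 1 was most like muscle 1 (0.303) and liver 2 like muscle 2 (0.299), whereas spleen 2 stayed nearest kidney 1 (0.262). Both colon arrays then had a rho of 0.470 and both pancreas arrays 0.133, and the other tissues stayed below 0.

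**Figure D1:**
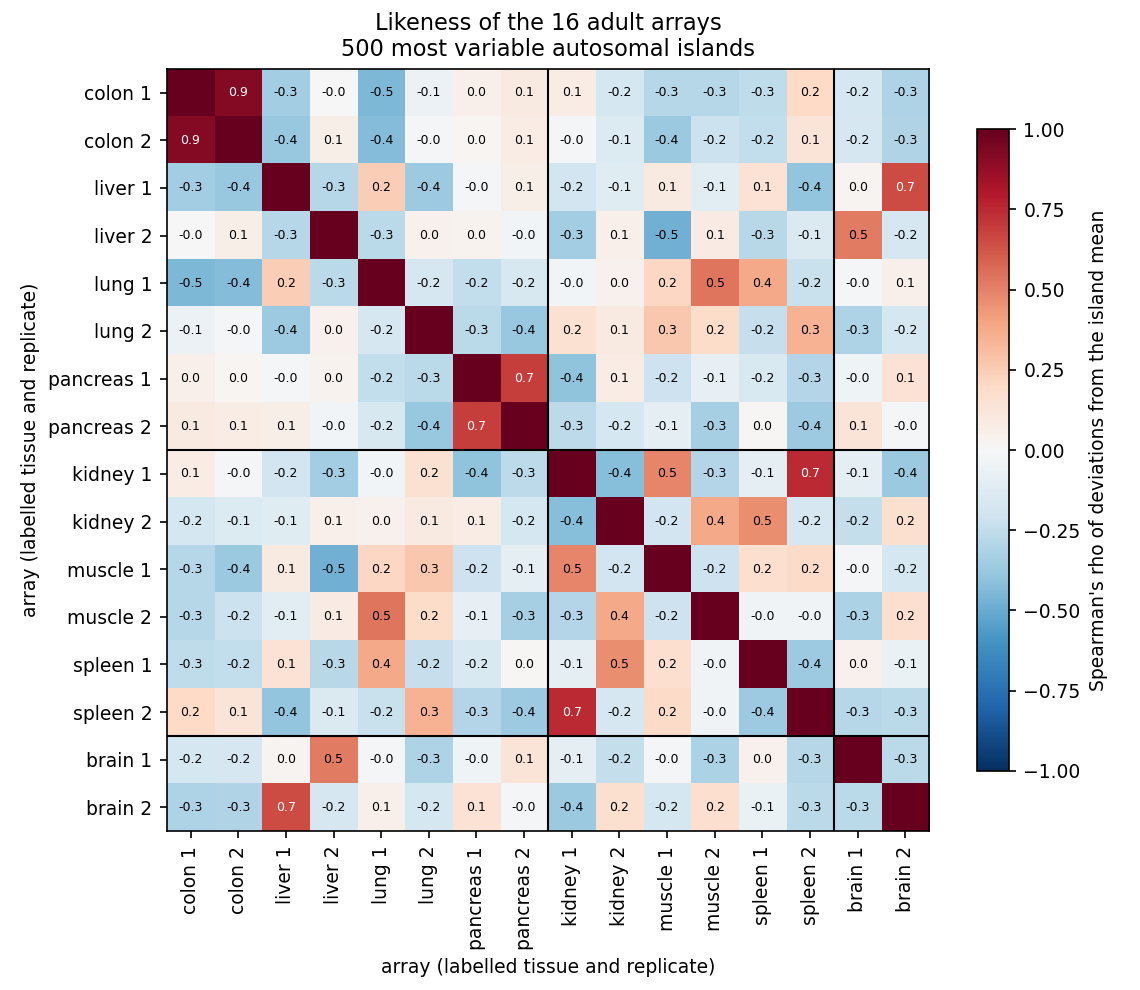
Spearman's rho between the 16 adult arrays over the 500 islands that varied most, each array taken as its deviation from the island mean, with array names as labelled. Both colon arrays (0.917) and both pancreas arrays (0.689) stood together, whereas kidney 1 stood with spleen 2 (0.747) and liver 1 with brain 2 (0.653).

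Single islands of lineage genes showed the same crossing. At the Pax2 island on chromosome 19 from 44889230 to 44890438, annotated as downstream of this gene of a kidney factor, the IMS was 1.90 in kidney 2 and 2.09 in spleen 1, and between -0.37 and 0.00 on the other 12 arrays. At Spi1, the gene of the myeloid factor PU.1, it was 3.06 in kidney 1 and 3.00 in spleen 2 and 0.45 to 1.65 elsewhere. Pax2 and Spi1 thus each joined 1 kidney array with 1 spleen array. Other markers kept to their labels. Both colon arrays were the lowest at Epcam, an epithelial adhesion gene (1.41 and 1.10, others 1.82 to 3.504), and both pancreas arrays were the lowest at Bhlha15, a factor of acinar cells (1.72 and 1.72, others 2.45 to 3.20). Of 5 markers chosen per organ, 3 had an island for colon, pancreas, kidney and muscle, 2 for lung and spleen and 1 for liver, so the liver labels in particular could hardly be checked by markers. Since the labels could not be settled, no array was moved, and the counts and the named islands below are also given without arrays in question.

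The first arrays of liver, lung, kidney, muscle and spleen were all scanned on one day and were all labelled female. Their sex labels fit the X chromosome, since the mean Z-score of X probes was 0.970 to 1.89 on the arrays labelled female and 0.120 to 0.236 on those labelled male. Scan day and sex cannot be told apart within these 5 arrays. The main counts and the 12 named islands are therefore given without these 5 arrays, which leaves 6 against 3, and within them, which leaves 2 against 3. The second arrays of liver, lung, kidney, muscle and spleen were of a smaller array grid with 88737 probes, which leaves 2 against 3. All the others of the 14 arrays, colon and pancreas among them, were of a larger grid with 97651 probes. Both arrays of each of those 5 tissues thus differ in grid and in scan day. Input DNA gave a median signal of 3.07 to 6.98 times the background on the 14 arrays, and bound DNA gave 1.59 to 5.59 times. The small number of arrays limits the precision.

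No island passed the test between the layers. With limma, in which the tissue was a random block, 0 of 13340 islands (0.00%) had a Benjamini-Hochberg adjusted p under 0.05, and the smallest adjusted p was 0.998. An unadjusted p under 0.05 was found for 538 islands (4.03%), 288 with the endoderm-derived organs above (2.16%) and 250 with them below (1.87%). The methods' t-test on the 14 arrays also gave 0 islands after adjustment and 408 before it, and limma on the 7 tissue means gave 0 and 515. Without the 5 arrays of one scan day limma gave 0 called and 332 islands (2.49%) at an unadjusted p under 0.05, and within those 5 arrays 0 and 868 (6.51%). Without kidney 1 and spleen 2, the most alike arrays of different tissues over the 500 most variable islands, it gave 0 and 263. The median standard error of a difference was 0.110 IMS.

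The share of the spread that followed the layers was close to their share of the degrees of freedom. Summed over all islands, the layer accounted for 8.0% of the variance with 7.69% of the degrees of freedom, and differences among tissues of one layer for 36.9% with 38.5%. Differences between both arrays of a tissue accounted for 55.1% with 53.8%. Sex and features of the arrays, which overlap with these terms, took more than their share of the degrees of freedom. Taken alone, sex accounted for 17.8% and the array grid for 13.7%, each with 7.69%. The scan day accounted for 58.4% with 46.15% and the slide for 82.1% with 76.9%. Without the 5 arrays of one scan day the layer took 11.8% with 12.5% of the degrees of freedom, the tissue within a layer 74.1% with 62.5% and both arrays of a tissue 14.1% with 25.0%. These shares are a description without a test.

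Tissue means of the layers did not overlap at 667 islands (5.00%). The endoderm-derived organs lay above at 412 of them (3.09%) and below at 255 (1.91%). The split depended on the scale, since log2 ratios left without division by each array's SD gave 131 above and 360 below, and normexp background correction gave 1405 above and 360 below. Without the 5 arrays of one scan day it was 189 above (1.42%) and 276 below (2.07%). The gap between the layers was small, with a median of 0.0375 IMS at the 412 islands and 0.0334 at the 255. The mean difference reached 0.5 at 18 of the 412 and 29 of the 255, and 1 at 6 and 2. No island had one layer above 0.75 and the other below 0 on all its arrays.

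The tissue at the edge of the endoderm-derived group depended on the arrays used. The highest tissue at the 412 islands was colon in 153 (37.1%), pancreas in 129 (31.3%), liver in 74 (18.0%) and lung in 56 (13.6%). At the 255 islands the lowest tissue was colon in 109 (42.7%), liver in 68 (26.7%), pancreas in 49 (19.2%) and lung in 29 (11.4%). When the 5 arrays of one scan day were left out, which leaves 1 array each of liver and lung, lung was the highest at 74 of 189 islands (39.2%) and the lowest at 110 of 276 (39.9%), and colon at 48 (25.4%) and 88 (31.9%). Kidney 1 and spleen 2 were the 2 highest of all 14 arrays at 40 of the 255 islands (15.7%), against 332 of all 13340 (2.49%). Kidney 2 and spleen 1 were so at 15 (5.88%), against 124 of all islands (0.93%). The choice of the 255 islands favours mesoderm-derived arrays at the top, so part of either contrast follows from that choice.

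The 6 named islands with the largest differences in either direction among those 667 are given as values, since each had an adjusted p of 0.998. In bulk organs a difference in the makeup of cells and a difference within one cell type cannot be told apart. Differences are the endoderm-derived minus the mesoderm-derived mean in IMS.

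At Vipr1, which encodes a receptor for vasoactive intestinal peptide, the island inside the gene on chromosome 9 (121517973 to 121518271) ran from -0.17 over a median of 0.80 to 2.51 on the 8 endoderm-derived arrays. On the 6 mesoderm-derived arrays it ran from -0.59 over -0.31 to -0.09. The difference of 1.33 ± 0.39 (SE, 95% interval 0.51 to 2.15) rested on colon (tissue mean 2.34) and pancreas (1.53), whereas liver (-0.04) and lung (0.15) lay near the mesoderm-derived arrays. It was 1.40 without the 5 arrays of one scan day and 0.46 within them. Cd200, a surface protein that restrains myeloid cells, was likewise highest in colon, then pancreas, on chromosome 16 (45327888 to 45328283). Its tissue means were 2.13 in colon, 0.87 in pancreas, 0.05 in liver and -0.29 in lung, and its mesoderm-derived arrays ran from -0.55 over -0.38 to -0.14. Its difference was 1.07 ± 0.37, with 1.17 without the 5 arrays and 0.23 within them.

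Gata4, a zinc finger factor of heart and foregut, has its island at the promoter on chromosome 14 (62205627 to 62205943). It was 1.42 and 2.03 in colon and 1.59 and 1.23 in pancreas, but -0.65 and 0.30 in liver and -0.70 and 0.14 in lung. The mesoderm-derived arrays ran from -0.76 over -0.50 to -0.22, so that liver 1 and lung 1 lay among them. The difference was 1.17 ± 0.37. It was 1.56 ± 0.37 without the 5 arrays of one scan day and turned to -0.22 within them, where no colon or pancreas array is left. Fam83h, a gene of the keratin cytoskeleton named AA409316 in the files, did likewise at chromosome 15 (75830167 to 75831964), with a difference of 1.24 ± 0.47, 1.97 ± 0.47 without the 5 arrays and -0.48 within them. At Fam83h the kidney arrays were -0.18 and 1.91 and the spleen arrays 2.11 and -0.41, so that each tissue's mean hid a gap between its arrays.

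The promoter island of Kat2a, a histone acetyltransferase that the files name Gcn5l2, lies on chromosome 11 (100529893 to 100530474). It ran from -0.54 over 1.87 to 2.41 on the endoderm-derived arrays and from -0.37 over 0.07 to 1.20 on the mesoderm-derived arrays. The colon arrays (2.41 and 1.99) and the pancreas arrays (2.03 and 2.13) were high, lung 2 at -0.54 was the lowest of all and muscle 2 at 1.20 was the highest of its layer. The difference was 1.25 ± 0.39, with 1.09 without the 5 arrays, 0.89 within them and 0.20 on the smaller grid. Igdcc4, an immunoglobulin-type surface protein named Nope in the files, ran from 0.41 over 2.11 to 2.94 and from 0.25 over 0.51 to 2.31 on chromosome 9 (64921729 to 64922146). Muscle 2 held the 2.31 and the other 5 mesoderm-derived arrays lay at 0.62 or below. Its difference was 1.16 ± 0.37, with 0.95 without the 5 arrays and 1.08 within them.

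**Figure D2:**
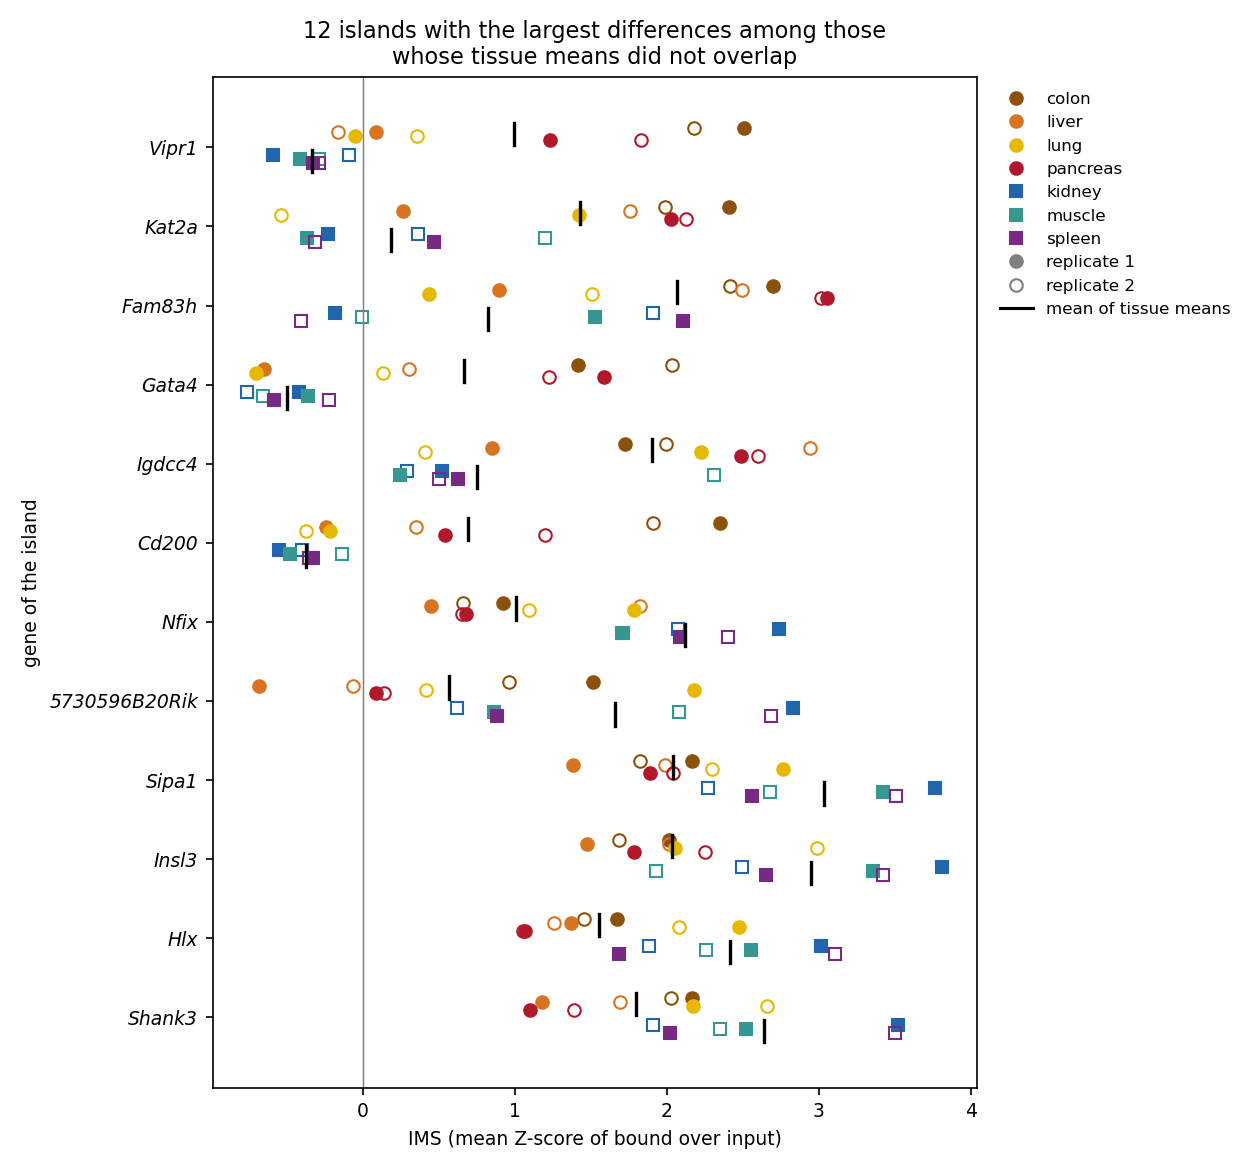
IMS of the 12 named islands on each of the 14 arrays, with circles for endoderm-derived and squares for mesoderm-derived organs, filled for replicate 1 and open for replicate 2, and a bar at the mean of the tissue means. At Vipr1 colon and pancreas stood apart (tissue means 2.34 and 1.53), and at the 6 islands with negative differences kidney 1 and spleen 2 were the highest arrays.

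In the other direction Nfix, a factor of the nuclear factor I family that acts in muscle and brain development, had the smallest unadjusted p of the 12. The island inside the gene on chromosome 8 (87662009 to 87662406) ran from 0.45 over 0.80 to 1.83 on the endoderm-derived arrays and from 1.71 over 2.08 to 2.74 on the mesoderm-derived arrays. Only liver 2 (1.83) and lung 1 (1.79) reached the range of the mesoderm-derived arrays. The difference was -1.11 ± 0.22 (95% interval -1.58 to -0.65), -1.03 ± 0.26 without the 5 arrays of one scan day and -1.06 within them. The embryos ran from -0.68 to -0.08 at Nfix, and the cells differentiated from EB5 ES cells were at -0.14 and -0.02 (endoderm) and -0.65 (mesoderm).

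Sipa1, an activator of the GTPase function of Rap, was among the most methylated of these islands on chromosome 19 (5654154 to 5655273, 9 probes). Its endoderm-derived arrays ran from 1.38 over 2.02 to 2.76 and its mesoderm-derived arrays from 2.27 over 3.05 to 3.77. Lung 1 (2.76) and lung 2 (2.30) reached the mesoderm-derived range. The difference was -0.99 ± 0.22, with -0.77 without the 5 arrays and -1.18 within them. Hlx, a homeobox gene of gut and liver mesenchyme named Hlx1 in the files, ran from 1.05 over 1.42 to 2.48 and from 1.69 over 2.41 to 3.11 on chromosome 1 (186428516 to 186428835), with a difference of -0.86 ± 0.24 that was -0.96 without the 5 arrays and -0.49 within them. There, too, the lung arrays (2.48 and 2.08) were the highest of the endoderm-derived arrays.

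The promoter island of Insl3, a hormone of Leydig cells, on chromosome 8 (74614831 to 74615142) ran from 1.48 over 2.02 to 2.99 and from 1.93 over 3.01 to 3.81, with lung 2 the highest of the endoderm-derived arrays. The difference of -0.91 ± 0.25 was -0.45 ± 0.34 without the 5 arrays of one scan day and -1.51 within them. Shank3, a scaffold of synapses, had a difference of -0.84 ± 0.28 on chromosome 15 (89375331 to 89376291), with arrays from 1.10 over 1.86 to 2.66 and from 1.91 over 2.44 to 3.52, and it was -0.71 without the 5 arrays and -1.01 within them. At the promoter island of 5730596B20Rik on chromosome 6 (52106690 to 52107163) the difference was -1.09 ± 0.42, with -1.33 without the 5 arrays and -0.78 within them. The colon arrays (1.52 and 0.96) and lung 1 (2.18) lay within the mesoderm-derived range of 0.62 over 1.48 to 2.83, and the liver (-0.68 and -0.06) and pancreas (0.08 and 0.14) arrays and lung 2 (0.41) lay below it.

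Kidney 1 and spleen 2 were the 2 highest of the 14 arrays at 6 of these 6 islands. Without both of them the differences were -0.88 ± 0.24 at Nfix, -0.69 ± 0.23 at Sipa1, -0.58 ± 0.26 at Insl3, -0.54 ± 0.25 at Hlx, -0.55 ± 0.44 at 5730596B20Rik and -0.41 ± 0.26 at Shank3. All 6 kept their sign. Each was nearer 0 than with all arrays, which had to follow from leaving out the 2 highest arrays, both of them mesoderm-derived.

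Islands at which no array of one layer reached the range of the other numbered 3 with the endoderm-derived arrays above (0.0225%) and 2 with them below (0.0150%), and they are named here after their values were seen. At Dennd1a, a factor of clathrin-mediated endocytosis, the island annotated as downstream on chromosome 2 (37615003 to 37616006) ran from 1.88 over 2.46 to 2.90 on the endoderm-derived arrays and from 2.95 over 3.12 to 3.26 on the mesoderm-derived arrays. The difference was -0.61 ± 0.14, and it was -0.57 without the 5 arrays of one scan day, -0.55 within them and -0.38 on the smaller array grid. Cpe, which encodes the prohormone-processing enzyme carboxypeptidase E, ran from -0.49 over -0.29 to -0.20 and from -0.20 over -0.03 to 0.06. Slc47a2, a proton-coupled exporter of organic cations, ran from -0.41 over -0.31 to 0.24 and from -0.64 over -0.52 to -0.49. The remaining ones were Coro7, with a difference of 0.23 ± 0.081, and Mtpap with 0.19 ± 0.074. Of these 5 islands only Dennd1a lay above the threshold of 0.75, and it did so in both layers.

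Lung, an endoderm-derived organ with much mesenchyme and vasculature, was the organ whose removal changed the test. Each tissue was left out in turn, and the islands at which the means of the other tissues did not overlap between the layers were taken. The tissue left out was then placed by its side of the midpoint between the layers. Lung lay on the endoderm-derived side at 23.6% of 1957 islands (14.7% of all islands), with 36.1% for lung 1 and 32.1% for lung 2. The share on the own side was 51.5% of 1171 islands for colon, 44.9% of 1146 for liver and 38.7% of 1425 for pancreas. Among the mesoderm-derived organs it was 64.8% of 1095 for kidney, 60.2% of 1200 for spleen and 37.5% of 1842 for muscle. Brain, which belongs to neither layer, lay on the endoderm-derived side at 58.8% of the 667 islands. The order differed without the 5 arrays of one scan day, with 36.8% of 1133 islands for lung, 40.4% of 978 for colon, 36.5% of 1029 for liver and 36.5% of 1014 for pancreas, and with 47.6% of 970 for kidney, 43.4% of 1103 for muscle and 29.4% of 1580 for spleen. These shares are descriptive, and the islands and arrays behind them overlap.

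**Figure D3:**
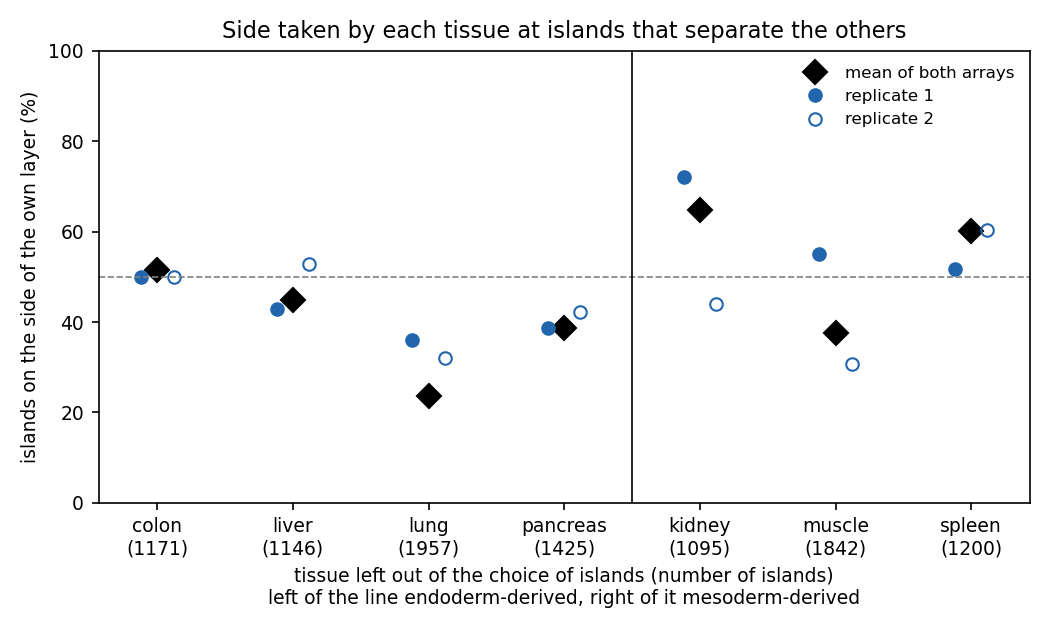
Share of islands (%) at which a tissue left out lay on the side of its own layer, for islands at which the other tissues' means did not overlap between the layers (number in brackets), with diamonds for the mean of both arrays and circles for each array. Lung was lowest with 23.6% of 1957 islands and kidney highest with 64.8% of 1095.

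Without lung, limma called 5 islands (0.0375%), 1 with the endoderm-derived organs higher and 4 lower, and 1170 had an unadjusted p under 0.05 (8.77%). Without lung 2 alone it called 3 of them (0.0225%) and 975 had an unadjusted p under 0.05 (7.31%), and without lung 1 alone it called 0 (686 at an unadjusted p under 0.05). These 5 islands were named after their values were seen. At Zfp423, a zinc finger factor of fat cell precursors, on chromosome 8 (90833865 to 90834203), the colon arrays were 1.12 and 1.30, the liver arrays 1.14 and 1.42 and the pancreas arrays 1.44 and 0.93. The kidney arrays were 3.04 and 2.46, the muscle arrays 3.03 and 2.77 and the spleen arrays 2.24 and 2.65. The lung arrays, at 2.43 and 3.12, lay within or above the mesoderm-derived range, and the other 6 endoderm-derived arrays lay below all of it.

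The difference at Zfp423 was -1.48 ± 0.13 without lung (limma, adjusted p = 0.00034), -1.32 without lung 2 (adjusted p = 0.0419) and -1.09 ± 0.29 with lung (adjusted p = 0.998). With lung but without the 5 arrays of one scan day it was -0.99. The fit without lung sets 3 tissues against 3, and its consensus correlation between arrays of one tissue was -0.11. No fit on tissue means was made without lung, so its p-values may understate the spread between tissues. Sema6b, a transmembrane semaphorin of axon guidance, ran from 2.01 to 2.28 in colon, liver and pancreas and from 2.80 to 3.49 in the mesoderm-derived organs, with lung at 2.70 and 3.67. Its difference without lung was -0.99 ± 0.11. Tpp1, a lysosomal peptidase, ran from 1.63 to 2.33 and from 2.58 to 3.29 with lung at 2.77 and 3.85, and the difference was -1.004 ± 0.14. Aff3, a nuclear factor of lymphoid cells, had -0.58 ± 0.088. Spire2, an actin nucleator, was the one in the other direction with 0.91 ± 0.11, from 2.17 to 2.63 in colon, liver and pancreas and from 1.20 to 1.76 in the mesoderm-derived organs, with lung at 1.84 and 1.27. At 4 of the 5 islands at least 1 lung array lay inside the mesoderm-derived range, and at Sema6b neither did, with 1 array below and 1 above it. These islands passed the test only with lung arrays left out, so lung's distance from the other endoderm-derived organs there follows from the choice.

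**Figure D4:**
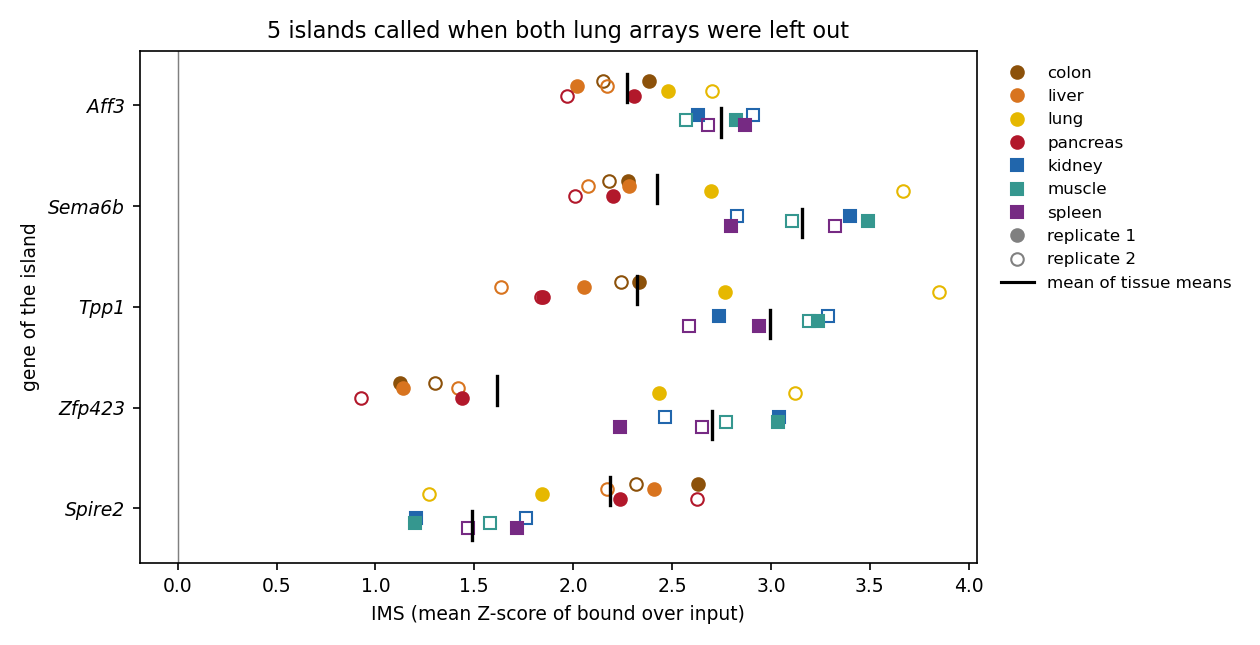
IMS of the 5 islands called when both lung arrays were left out, on all 14 arrays, with circles for endoderm-derived and squares for mesoderm-derived organs, filled for replicate 1 and open for replicate 2. At Zfp423 the lung arrays (2.43 and 3.12) stood with kidney, muscle and spleen (2.24 to 3.04), and colon, liver and pancreas stood between 0.93 and 1.44. The islands were chosen by leaving lung out, which favours such a place of lung.

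The labels of the lung arrays are among those in question. Over the 500 most variable islands lung 1 was most like muscle 2, and lung 2 was more like muscle 1 (rho 0.27) than like lung 1. Over all islands lung 1 was most like spleen 1 (0.495) and lung 2 most like muscle 1 (0.294). With the first arrays of liver, lung and muscle left out limma called 0 islands (571 at an unadjusted p under 0.05), and with their second arrays left out 0 (1112). The part of the labels in the lung result was not tested.

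The transcription factors of endoderm, which pattern the gut tube and its organs, were represented by 59 islands of 30 of 34 genes. The tissue means did not overlap at 4 islands with the endoderm-derived organs above and 2 below (10.2%, against 5.00% of all islands). An unadjusted p under 0.05 was found at 4 above and 3 below (11.9%, against 4.03% of all islands), and 0 were called. The median difference was 0.022, against 0.0080 over all islands. It was -0.029 on the unscaled log2 ratios, where that of all islands was -0.056, and -0.012 without the 5 arrays of one scan day. Mnx1, a pancreatic and motor neuron homeobox gene named Hlxb9 in the files, had the largest positive difference of all islands in the list and in the table. It was 2.70 and 1.96 in colon and 2.69 and 2.84 in pancreas, and between -0.18 and 0.09 in liver and lung. The mesoderm-derived arrays ran from -0.95 over -0.13 to 0.63, and the difference was 1.43 ± 0.52, with -0.19 on the smaller grid, which holds no colon or pancreas array. Gata4 has been given above, and Tcf7l2, an effector of Wnt signalling, had -0.33 ± 0.098.

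The transcription factors of mesoderm had 110 islands of 50 of 55 genes, with 4 above and 3 below that did not overlap (6.36%, against 5.00% of all islands) and a median difference of 0.022. Nr2f2, a nuclear receptor of veins and mesenchyme, ran from 0.44 over 1.72 to 2.28 on the endoderm-derived arrays and from -0.26 over 0.37 to 1.39 on the mesoderm-derived arrays. The muscle arrays (1.39 and 1.39) lay among the endoderm-derived arrays, and kidney and spleen lay between -0.26 and 0.51. The difference was 1.02 ± 0.29. Mesp2, a factor of somite borders, had 0.52 ± 0.20 and Pax3, a factor of muscle precursors and neural crest, -0.35 ± 0.11. The sign of the list's median changed under 12 of 48 alternatives, among them the log2 scale (-0.035), normexp (-0.012) and the fit without the 5 arrays (-0.082).

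Muscle lineage genes had 21 islands of 11 of 23 genes, with 1 below and 0 above that did not overlap (4.76%, against 5.00% of all islands) and a median difference of 0.037, which changed sign under 17 of 48 alternatives, such as normexp (-0.035) and the fit without the 5 arrays of one scan day (-0.13). Myog, the factor of muscle differentiation, ran from 0.46 over 0.86 to 1.81 on the endoderm-derived arrays and from 0.80 over 1.75 to 1.90 on the mesoderm-derived arrays. The muscle arrays (1.36 and 1.81) were not the lowest of their layer, and the spleen arrays (1.90 and 1.84) were the highest. The difference was -0.55 ± 0.22, and it was 0.08 within the arrays of one scan day. Pax7 had -0.24 ± 0.12 and Mef2a -0.15 ± 0.12. Kidney lineage genes had 47 islands of 22 of 27 genes, with 2 above and 1 below that did not overlap (6.38%, against 5.00% of all islands) and a median of -0.031, against 0.12 with the scan day and 0.27 with the slide as a fixed block. Besides Pax2 (-0.78 ± 0.32), whose difference rested on kidney 2 and spleen 1, Osr1 had 0.25 ± 0.10.

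Blood lineage genes, which the spleen's cells use most, had 44 islands of 21 of 34 genes. The difference was below 0 at 32 of the 44, against 6258 of all 13340, and the median was -0.083, against 0.0080 over all islands. An unadjusted p under 0.05 was found at 6 islands (13.6%, against 4.03% of all), all of them lower in the endoderm-derived organs, and 0 were called. At 14 of the 44 (31.8%) kidney 1 and spleen 2 were the 2 highest arrays, against 2.49% of all islands. Without these arrays the list's median was -0.042, against 0.0043 over all islands in that fit. An unadjusted p under 0.05 was then found at 0 of its islands, against 1.97% of all islands. Part of this change had to follow from leaving out the arrays that were highest at 14 of the 44. The list's median turned positive under 1 of 48 alternatives, the slide as a fixed block (0.0027), and was -0.17 on the unscaled log2 ratios and -0.060 with normexp.

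The promoter island of Gata2, a factor of blood stem cells, on chromosome 6 (88155182 to 88156598, 10 probes) ran from 0.41 over 0.80 to 1.24 on the endoderm-derived arrays and from 0.75 over 1.51 to 2.39 on the mesoderm-derived arrays. The kidney (2.39 and 1.41) and spleen (1.595 and 2.23) arrays lay above all endoderm-derived arrays, and the muscle arrays (0.75 and 0.88) lay among them. The difference was -0.73 ± 0.23, and -0.34 ± 0.18 without kidney 1 and spleen 2. Fli1, a factor of blood and vessel precursors, was 3.10 in kidney 1 and 3.14 in spleen 2, with the other mesoderm-derived arrays from 1.07 to 2.29 and the endoderm-derived arrays from 0.70 over 1.25 to 1.72. Its difference of -0.84 ± 0.29 was -0.29 ± 0.22 without those arrays. Cd37, a tetraspanin of leukocytes, had -0.52 ± 0.20, and 2.80 and 2.75 on the same pair of arrays.

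The Hox genes, which give cells their place along the body axis, had 63 islands of 36 of 52 genes. The difference was below 0 at 41 of the 63, with a median of -0.11, against 0.0080 over all islands. Of these islands 4 had an unadjusted p under 0.05 (6.35%, against 4.03% of all islands) and 2 did not overlap (3.17%, against 5.00%). All of them were lower in the endoderm-derived organs, and 0 were called. Without the 5 arrays of one scan day the median was -0.22 and 14 islands had an unadjusted p under 0.05, all lower (against 1.70% of all islands in this direction), but within those 5 arrays the median was 0.048. It was also positive with the scan day (0.048) or the slide (0.35) as a fixed block, and it was -0.27 on the unscaled log2 ratios and -0.058 with normexp. The median IMS of the list was lowest in liver (-0.29) and pancreas (-0.25), followed by colon (-0.14), kidney (-0.056), muscle (0.00097), lung (0.035) and spleen (0.037).

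Hoxa5, a Hox gene of lung and thoracic mesenchyme, had the most negative difference in the whole table, at an island inside the gene on chromosome 6 (52133274 to 52134506, 10 probes). The liver arrays were -0.33 and 0.27, the pancreas arrays 0.60 and 0.62, the colon arrays 1.67 and 1.16 and the lung arrays 1.98 and 1.43. The mesoderm-derived arrays ran from 1.25 over 1.79 to 3.57, so that lung and 1 colon array lay within their range. The difference was -1.23 ± 0.39, -1.18 ± 0.39 without the 5 arrays and -0.63 ± 0.35 without kidney 1 and spleen 2. Hoxb3, a more anterior member, had -0.89 ± 0.30.

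At the promoter island of Hoxa11, a gene of limb and kidney, on chromosome 6 (52182276 to 52183810, 13 probes) the arrays fell apart within tissues. It was 1.46 in lung 1, 1.46 in muscle 2, 1.63 in kidney 2 and 1.96 in spleen 1, and between -0.88 and -0.36 on the other 10 arrays. The Hoxa11 difference of -0.86 ± 0.45 was 0.16 within the arrays of one scan day.

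**Figure D5:**
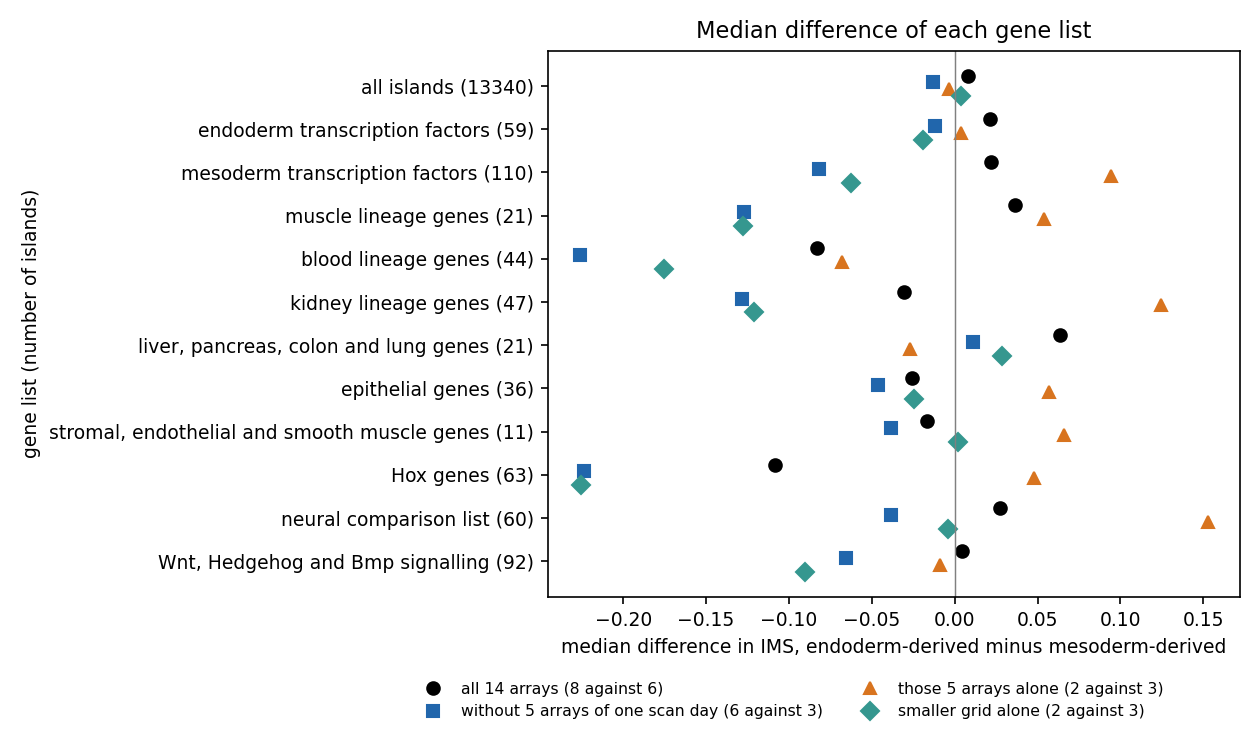
Median difference in IMS (endoderm-derived minus mesoderm-derived) of the 11 gene lists and of all islands, with the number of islands in brackets, from all 14 arrays (circles), without the 5 arrays of one scan day (squares), within those 5 (triangles) and on the smaller grid (diamonds). With all arrays the medians of blood lineage genes (-0.083) and Hox genes (-0.11) were the lowest, and within the 5 arrays that of Hox genes was 0.048.

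Genes of the differentiated endoderm-derived organs had 21 islands of 14 of 34 genes. Tissue means did not overlap at 0 of them, against 5.00% of all islands. The difference was above 0 at 18 of the 21, against 7082 of all 13340. Its median was 0.063, against 0.0080 over all islands. That median was 0.011 without the 5 arrays of one scan day and -0.027 with the scan day as a fixed block. Cdx1 and Bhlha15, named by the smallest p, were among the 3 islands below 0. Cdx1, an intestinal homeobox gene, had -0.56 ± 0.22 with 2.98 in kidney 1 and 3.03 in spleen 2 and Bhlha15 (Bhlhb8 in the files) -0.36 ± 0.20. Epithelial genes had 36 islands of 26 of 31 genes, 3 of them not overlapping and below (8.33%, against 5.00% of all islands in both directions and 1.91% in this one), with a median of -0.026 that changed sign under 17 of 48 alternatives, such as normexp (0.034). Cldn4, a tight junction claudin, had -0.54 ± 0.22 and Marveld3 -0.30 ± 0.13. Genes of stroma, endothelium and smooth muscle, cells that all 7 organs hold, had 11 islands of 9 of 25 genes. Of these 0 had an unadjusted p under 0.05 (against 4.03% of all islands) and 0 did not overlap (against 5.00%). The list is too short to tell 0 from these shares. Its median of -0.016 changed sign under 14 of 48 alternatives and ran from -0.24 to 0.074. Pdgfra had 0.36 ± 0.17, Kdr 0.20 ± 0.10 and Cdh5 -0.26 ± 0.17.

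Neural genes, taken as a list that belongs to neither layer, had 60 islands of 26 of 33 genes. Of these 2 did not overlap and lay above (3.33%, against 5.00% of all islands in both directions and 3.09% in this one). An unadjusted p under 0.05 was found at 0, against 4.03% of all islands. The median was 0.027, against -0.024 on the unscaled log2 ratios and -0.039 without the 5 arrays of one scan day. With the scan day as a fixed block the median was 0.15, against -0.0036 over all islands. Then 14 of the 60 islands had an unadjusted p under 0.05, all higher in the endoderm-derived organs, against 409 of all 13340 in this direction. Within that scan day there were 13 such islands, against 469 of all 13340. Gfap had 0.36 ± 0.19, Zic1 0.23 ± 0.15 and Zic4 0.22 ± 0.15. Members of the Wnt, Hedgehog and Bmp pathways, which signal between the gut epithelium and its mesenchyme, had 92 islands of 49 of 53 genes. Of these 2 above and 3 below did not overlap (5.43%, against 5.00% of all islands), and the median of 0.0043 changed sign under 28 of 48 alternatives. The Wnt receptors Fzd5 and Fzd1 had -0.38 ± 0.14 and 0.23 ± 0.085, and the ligand Wnt3 had 0.30 ± 0.12.

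The shares of methylated islands of the layers overlapped. Islands with an IMS above 0.75 made up 9.57% to 12.5% of the islands on the endoderm-derived arrays and 9.85% to 12.1% on the mesoderm-derived arrays. The tissue means were 12.3% in colon, 12% in spleen, 11.2% in kidney, 11.1% in pancreas, 10.98% in lung, 10.7% in liver and 10.7% in muscle. Both layers had a mean of 11.3% (SD 0.678 over 4 endoderm-derived and 0.672 over 3 mesoderm-derived tissues), and the difference was -0.00344 percentage points (two-sided exact permutation test over tissue means, p = 0.914, where 0.0571 is the smallest p possible). Without the 5 arrays of one scan day it was -0.431 percentage points (exact permutation p = 0.743). For comparison, the shares were 9.49% to 10.0% in the 5 embryos, 16.7% and 16.8% in endoderm differentiated from EB5 ES cells and 16.02% in mesoderm from the same line.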

How the data were processed

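DNA was bound by an antibody against methylated cytosine, and bound (Cy5) and input (Cy3) DNA were hybridised to 2-colour CpG island arrays. The authors deposited scanner files with a log10 ratio of bound over input per probe (LogRatio, used here) and the median signal intensity and background of both channels, which were used for detection and for an alternative background correction. They also deposited a processed score per probe, which correlated with the Z-scores computed here at r = 0.930 to 0.989 across probes and was used as an alternative. The build of the probe positions was not given in the sources used here.

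Control and flagged spots were left out (2 to 91 flagged per array). The LogRatio of each array was turned into a Z-score and averaged over islands, which were runs of at least 3 of the 88737 probes present on both array grids with gaps of at most 500 bases. Chromosomes X and Y were dropped. This scaling removes any difference in total methylation between arrays. Input was well above background for 62.4% to 99.3% of probes.

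Layers were compared on the log-ratio Z-scores with limma 3.58.1 in R 4.3.3 (tissue as a random block with a consensus correlation of -0.0907, Benjamini-Hochberg adjustment over all 13340 islands, threshold 0.05) and, for shares, with an exact permutation test over tissue means in Python 3.11.15 with scipy 1.17.1. The fit was also run on simulated data, which held no effect of scan day, slide or array grid. Since no island passed the test, named islands were the 6 with the largest difference in each direction among islands with a gene name and tissue means that did not overlap, and up to 3 genes per list by the smallest p. Some genes that this rule picks are not reported here. Organs and gene lists were chosen with earlier results of these data known. Of 9636 gene names, 7405 were current RefSeq symbols and 1737 were updated through synonyms. Alternatives changed the scale, filters, islands, blocks and arrays. Replicate numbers did not pair the tissues (21 pairs of tissues, r from -0.319 to 0.467, 7 above 0.1).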

Additional observations from a re-analysis of the deposited data

Results flagged for a closer look

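In 5 of the named islands 1 array stood far from the others of its layer, judged by its gap to the nearest array relative to the range of the group. In all, 94 groups of 6 or 8 arrays were examined, of which chance alone sets apart about 5%. At Igdcc4 muscle 2 was at 2.31 and the other 5 mesoderm-derived arrays at 0.25 to 0.62. At Pdgfra pancreas 1 was at 0.846 and the other 7 endoderm-derived arrays at -0.30 to 0.22. At Hoxb3 liver 1 was at -0.405, below the others at 0.74 to 1.73. At Hoxa11 lung 1 was at 1.46 and the others at -0.88 to -0.36. At Sema6b lung 2 was at 3.67 and the others at 2.01 to 2.70.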

How the results depend on the processing

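Of 48 alternatives in the scale, filters, islands, blocks and arrays, 46 called 0 islands between the layers, as the reported fit did. Leaving out single arrays or tissues gave 0 to 5 calls, with 3 without lung 2 and 5 without lung. Replicate numbers do not pair the tissues, and with the replicate as a block 0 islands were called and 525 had an unadjusted p under 0.05. The count of islands whose tissue means did not overlap (667) was 249 with the deposited table, 315 with probes well above background, 417 with at least 5 probes, 420 without kidney 1 and spleen 2, 1103 without the second arrays of liver, lung and muscle, 1765 with normexp, 2707 on the smaller grid and 3130 within one scan day. Leaving out one tissue gave 1095 to 1957. Lung lay on its own side least often with all arrays (23.6%), and spleen (29.4%) without the 5 arrays of one scan day. The fits without or within sets of arrays, normexp and the common Z-score were added after seeing the data. Normexp on mean signals was not run, since not all 14 files hold them, nor was a block for the software version, which all 14 arrays share.

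The difference in the share above 0.75 (percentage points) turned positive with the deposited table (0.0354), the median of probes (0.0316), probes well above background (0.137), Z-scores over autosomal probes (0.0119), a threshold of 0.5 (0.393), within one scan day (0.204) and with replicate 1 arrays alone as the replicate block (0.258). It ran from -0.357 to 0.353 when an array or tissue was left out.

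Of 46 named islands 26 kept their sign under every alternative run. With the slide as a fixed block the sign turned at Fam83h (-1.09), Gata4 (-0.342), Mnx1 (-0.0248), Nfix (0.0705), 5730596B20Rik (1.31), Myog (0.4485), Pax7 (0.0431), Gata2 (0.489), Cdx1 (0.0350), Bhlha15 (0.116), Marveld3 (0.7085), Hoxa5 (0.612) and Hoxa11 (2.14). With the scan day as a block, as within that scan day, it turned at Fam83h (-0.485), Gata4 (-0.2235), Mesp2 (-0.0626), Myog (0.0785), Pax7 (0.105) and Hoxa11 (0.156). On the smaller grid it turned at Mnx1 (-0.186), Kdr (-0.1765), Gfap (-0.0668), Zic4 (-0.0822), Mef2a (0.167) and Cd37 (0.0644). With normexp it turned at Zic1 (-0.0398), and with the deposited table at Kdr (-0.00161). Without the 5 arrays of one scan day it turned at Zic1 (-0.0411) and Zic4 (-0.0743), and with common Z-scores besides at Zic1 (-0.0188) and Zic4 (-0.0522). The cause was not tested.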

Other observations

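Small p-values made up the largest share among islands with a high mean IMS over the adult organs. Among the 1450 islands with a mean IMS above 0.75 an unadjusted p under 0.05 was found at 11.7% (44 with the endoderm-derived organs above and 125 below), against 5.35% of the 1927 islands from 0 to 0.75 and 2.67% of the 9963 islands below 0. The median difference of the methylated islands was -0.11, with medians of 2.25 IMS in the endoderm-derived and 2.35 IMS in the mesoderm-derived organs. It was -0.048 without the 5 arrays of one scan day, -0.16 within them and -0.20 on the smaller grid. No island of any class was called.

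By position, the share with an unadjusted p under 0.05 was 7.38% of the 420 islands annotated as downstream of a gene, 3.97% of the 8230 inside genes, 3.57% of the 2522 at promoters and 3.36% of the 417 at divergent promoters.

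The cells differentiated from EB5 ES cells along both lineages did not share the order of the organs. The endoderm minus mesoderm difference of these cells, with 2 arrays and 1, had a median of -0.055 at the 412 islands where the endoderm-derived organs lay above, -0.048 at the 255 where they lay below and -0.047 over all islands. With 1 mesoderm array this has no replicate check.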
